A study of Rattus norvegicus with 8 samples.

Results

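The matrix metalloproteinases (MMPs) Mmp2, Mmp9, Mmp12, Mmp13, Mmp14 and Mmp23 and the tissue inhibitors of metalloproteinases Timp1, Timp2, Timp3 and Timp4 were described in cirrhotic rat liver. They were taken as the probe sets whose only gene symbol in the platform annotation is that of a member, which gave 19 probe sets for 10 genes among 31042 probe sets tested, which stand for 14217 named genes and for others without a single symbol. A probe set is a group of short oligonucleotides that together report 1 transcript, and 6 of the 10 genes had more than 1. The animals were male Wistar rats with cirrhosis caused by inhaled carbon tetrachloride (CCl4), a toxin that kills hepatocytes, and their drinking fluid held phenobarbital at 0.3 g/L, which induces drug metabolism. By the sample labels, 4 rats received vehicle and 4 an antiangiogenic treatment, one aimed at vessel growth, and the sources used here name neither its agent nor its dose. The series' design text calls the controls non-treated, and it speaks of angiogenesis inhibitors for the other arm. Every animal of both arms carried the CCl4 injury and the phenobarbital, so no healthy liver enters any value below. Each sample was read on 1 Affymetrix Rat2302 array, and the values are log2 intensities.

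MMPs are secreted or membrane-bound zinc proteases that cut collagens, elastin and other matrix proteins. They are made as inactive precursors, opened by other proteases, and held in check by TIMPs, which sit in the active site. In a fibrotic liver activated stellate cells, the main collagen-producing cells, are known to make Mmp2 and TIMPs, while macrophages are known to make Mmp12 and, during scar removal, Mmp13. A liver can therefore hold abundant proteases and abundant inhibitors at once, and both sides are given here.

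RefSeq promoter windows of assembly GRCr8 were found for 7 of the 10 members, and the 150 bases before the start of 5 of them are shown. Mmp12 and Timp1 are shown because their main (brightest) probe sets ranged most widely over the arrays, Mmp13 because it lies beside Mmp12, and Timp2 and Timp3 as inhibitors of the same family. They are written 5′ to 3′ on the strand of the gene. Capitals mark TGAGTCA (the usual site of AP-1, the Fos and Jun factor), its variant TGAGTAA, and TATAAA, each searched on both strands.
Mmp12 (chr8:12866502-12866651, plus strand): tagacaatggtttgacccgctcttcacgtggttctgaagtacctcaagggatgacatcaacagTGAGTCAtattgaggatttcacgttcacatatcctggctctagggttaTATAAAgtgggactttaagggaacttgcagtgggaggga
Mmp13 (chr8:12782679-12782828, plus strand): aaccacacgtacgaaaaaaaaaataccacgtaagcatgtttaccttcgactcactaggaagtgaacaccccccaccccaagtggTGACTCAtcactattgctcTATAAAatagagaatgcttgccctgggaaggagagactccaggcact
Timp1 (chrX:3771123-3771272, minus strand): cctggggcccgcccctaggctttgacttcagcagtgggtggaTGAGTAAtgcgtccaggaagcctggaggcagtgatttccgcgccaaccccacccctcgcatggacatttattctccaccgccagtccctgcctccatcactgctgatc
Timp2 (chr10:104089215-104089364, minus strand): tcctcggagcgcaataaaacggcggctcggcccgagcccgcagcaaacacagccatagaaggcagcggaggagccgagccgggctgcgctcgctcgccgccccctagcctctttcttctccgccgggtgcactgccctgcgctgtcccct
Timp3 (chr7:19459559-19459708, minus strand): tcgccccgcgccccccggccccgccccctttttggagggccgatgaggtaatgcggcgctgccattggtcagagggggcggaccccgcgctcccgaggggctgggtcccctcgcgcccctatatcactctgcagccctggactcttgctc
The Mmp12 window held TGAGTCA from base 87 to base 81 before the start and TATAAA from 39 to 34. That of Mmp13 held the same 2 motifs, the first on the other strand, from 66 to 60 and from 47 to 42. The variant TGAGTAA stood in the Timp1 window from base 108 to 102. Of 33469 windows of this length in the table, 2.38% held TGAGTCA, 1.43% the variant and 8% TATAAA on either strand. The Timp1, Timp2 and Timp3 windows held GGGCGG, the box bound by Sp1 factors, on either strand, as did 26% of all windows. Of the member windows not shown, that of the protease Mmp23 held 2 such boxes and that of Timp4 held 0. In the Mmp23 and Timp4 windows TGAGTCA, its variant and TATAAA were absent. A match describes these letters and does not show that a factor binds there.

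Before the members are described, 3 properties of the arrays bear on every value. Vehicle 4 and treated 3 were nearly the same in all probe sets (correlation 0.996, against 0.956 to 0.988 in the 27 other pairs of arrays), so the difference of each member is also given without both. Since 1 of these like arrays lies in each group, they draw most differences towards 0. Leaving out both therefore enlarges most differences by arithmetic, and a larger value without the pair is no added evidence of an effect. Whether vehicle 4 and treated 3 come from 2 livers was not tested. If 1 liver stands under both labels, 1 of the groups holds 3 livers of its own, and every mean, SD and interval below given with n = 4 counts arrays. The levels of BioB and BioC, spiked-in bacterial transcripts, put the arrays into 3 sets, of vehicle 1 with treated 1, of vehicle 2 and 3 with treated 2 and 4, and of vehicle 4 with treated 3, and the differences within each set, in this order, are given beside the pooled ones for the main (brightest) probe set of each gene. The 3′ to 5′ log2 ratio of Gapdh, a measure of RNA integrity, lay between 0.19 and 0.41 on the vehicle and between 0.13 and 0.40 on the treated arrays. The tissue carried its defining transcripts, with albumin (Alb) at 14.84 ± 0.02 and 14.82 ± 0.03 (SD, n = 4 each). The design text counts 4 rats per arm, and p-values measure only the spread between these arrays, part of which may be technical. Differences below are treated minus vehicle in log2 units, with 95% intervals from limma, a linear model whose variances are moderated across probe sets.

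Most MMP and TIMP probe sets were lower in treated livers, but 0 of the 19 passed limma's adjusted p of 0.05, and 0% of all probe sets did. The difference was below 0 at 15 of 19 probe sets (78.9%), against 45.3% of all probe sets, and its median over the members was −0.18, against 0.018 over all. The 4 probe sets above 0 were both of Mmp9, the dimmer of Mmp2 and 1 of Mmp23. At an unadjusted p of 0.05, 1 member probe set differed, of Timp3, against 3.93% of all. In 0 of the 19 did the groups separate without overlap, which 1.67% of all probe sets did. Without vehicle 4 and treated 3, 14 of 19 were below 0 (44.6% of all), with a median of −0.30. On those 6 arrays 3 member probe sets, of Timp3, Timp3 and Mmp2, reached an unadjusted p of 0.05 (6.52% of all) and 0 the adjusted one (0.00966% of all).

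**Figure D1:**
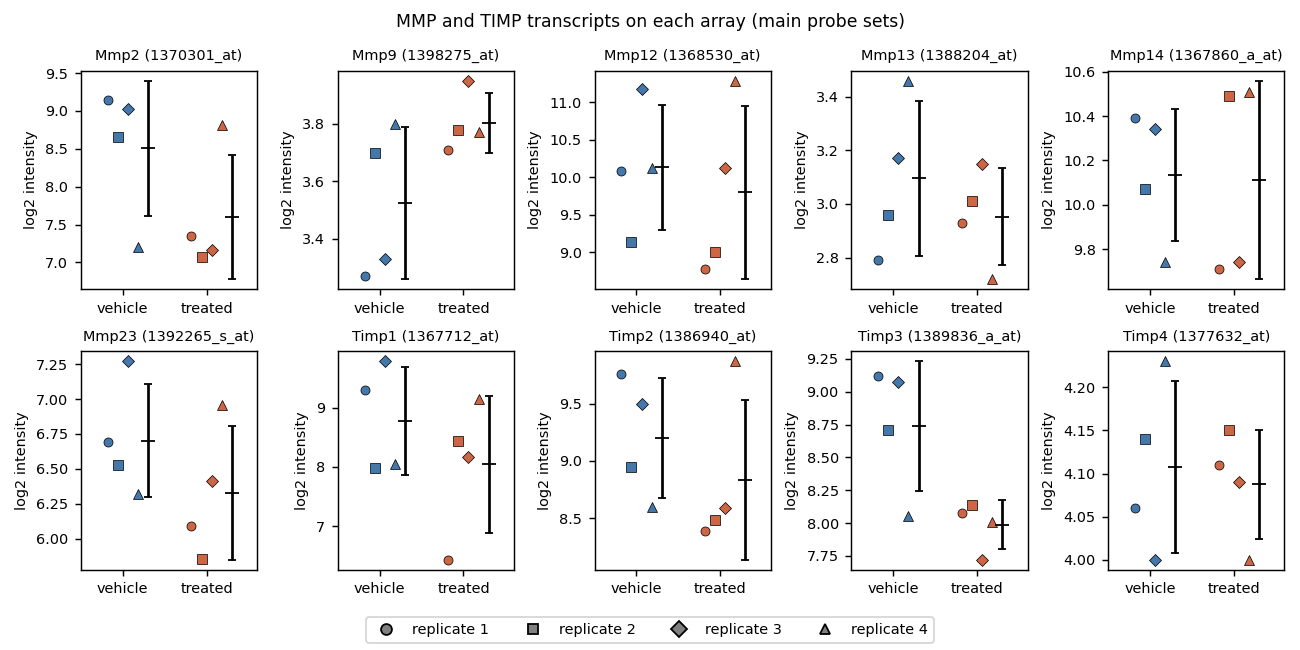
Log2 intensity of the main probe set of each of the 10 genes (y axes differ between panels) on the 4 vehicle (blue) and 4 treated (orange) arrays, marker shape giving the replicate number of the title and the bar the mean ± SD. Treated 4 lies near the upper vehicle arrays for Mmp2, Mmp12, Timp1 and Timp2, and vehicle 4 near the treated arrays for Mmp2, Timp2 and Timp3.

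Among the gelatinases, which digest denatured collagen and basement membrane, Mmp2 had the largest difference of any member, without passing the test. Its bright probe set (1370301_at) read 9.14, 8.66, 9.03 and 7.21 across vehicle 1 to 4 and 7.35, 7.07, 7.16 and 8.81 across treated 1 to 4. The arrays fell into a high and a low class with none between 7.35 and 8.66: vehicle 1 to 3 and treated 4 were high, and vehicle 4 and treated 1 to 3 low. The group means of 8.51 ± 0.89 and 7.60 ± 0.82 (SD, n = 4 each) lay in this gap. The difference was −0.91, or 1.88-fold lower (95% interval −2.05 to 0.22, limma adjusted p = 0.979), and −1.20 without vehicle 4 and treated 3 (−2.26 to −0.14, limma adjusted p = 0.747). Within the 3 spike-in sets it was −1.78, −0.91 and −0.05. A second, dim Mmp2 probe set (1369825_at) averaged 3.80 ± 0.16 and 4.01 ± 0.37 and went the other way by 0.21 (−0.21 to 0.63), and by 0.18 without vehicle 4 and treated 3. The mean of both Mmp2 probe sets differed by −0.35.

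Mmp9, the gelatinase of neutrophils and macrophages, was near the lower end of the signal on all arrays. The 25th percentile of an array lay between 3.74 and 3.91. The main Mmp9 probe set (1398275_at) read 3.27, 3.70, 3.33 and 3.80 on the vehicle arrays and 3.71, 3.78, 3.95 and 3.77 on the treated ones. The lowest treated array stood above 3 of the 4 vehicle arrays, with vehicle 4 the exception. The second probe set (1369166_at) averaged 3.57 ± 0.09 and 3.68 ± 0.06. The main probe set differed by 0.28 (−0.05 to 0.61), by 0.45, 0.26 and 0.15 within spike-in sets, and by 0.32 without vehicle 4 and treated 3. The second differed by 0.11, and by 0.16 without that pair. At this brightness a level cannot be told from background, since no detection calls were used.

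Mmp12, the macrophage elastase, had similar means in both groups and varied strongly within each. The probe set (1368530_at) read 10.09, 9.14, 11.18 and 10.13 across vehicle 1 to 4 and 8.78, 9.0, 10.13 and 11.29 across treated 1 to 4. The highest array, treated 4, and the lowest, treated 1, were both treated, and vehicle 4 and treated 3 were equal. Means were 10.14 ± 0.84 and 9.80 ± 1.16, and the difference of −0.33 had an interval from −1.67 to 1.0. It was −1.31 in the first spike-in set, −0.01 in the second and 0.00 in the third, and 0.01 without vehicle 3 and without treated 1. Leaving out vehicle 2, treated 2 or treated 4 gave −0.67, −0.07 and −0.83. With vehicle 4 and treated 3 left out it was −0.45 (−2.30 to 1.40).

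Mmp13, the main rodent collagenase for fibrillar collagen, stood at the bottom of the signal range. Its probe set (1388204_at) averaged 3.09 ± 0.29 and 2.95 ± 0.18, under the 25th percentile of every array. It differed by −0.14 (−0.51 to 0.23), by 0.14, −0.20 and −0.31 within spike-in sets, by −0.09 without vehicle 4 and treated 3 and by −0.02 without vehicle 4 alone. The gene stands next to Mmp12 in RefSeq's order of protein-coding genes on GRCr8, followed by Mmp1b, Mmp3, Mmp1, Mmp10, Mmp8, Mmp27 and Mmp20. Of these neighbours the 3 measured ones were also dim. The stromelysin Mmp3 (1368657_at) averaged 3.51 ± 0.27 and 3.47 ± 0.22, the stromelysin Mmp10 (1368713_at) 4.15 ± 0.49 and 4.05 ± 0.54, and the neutrophil collagenase Mmp8 (1387735_at) 3.70 ± 0.20 and 3.75 ± 0.29.

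Mmp14, the membrane-type MMP that activates the Mmp2 precursor at the cell surface, showed the smallest difference among the bright members. The main probe set (1367860_a_at) read 10.39, 10.07, 10.34 and 9.74 across vehicle 1 to 4 and 9.71, 10.49, 9.74 and 10.51 across treated 1 to 4. Both groups spanned nearly the same range. The difference was −0.02 with an interval from −0.56 to 0.52, and it turned to 0.03 with the arrays centred on their medians. Within spike-in sets it was −0.68, 0.30 and 0.01. The second probe set (1378225_at) differed by −0.12 (−0.48 to 0.23). Both were, without vehicle 4 and treated 3, close to 0, at −0.03 and −0.04.

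Mmp23, an MMP anchored in the membrane before its release and lacking the hinge and hemopexin domain of its relatives, had probe sets that disagreed in sign. The main one (1392265_s_at) read 6.69, 6.53, 7.27 and 6.32 across vehicle 1 to 4 and 6.09, 5.85, 6.41 and 6.96 across treated 1 to 4, a difference of −0.38 (−0.99 to 0.24). Another (1368961_at) also differed by −0.38 (−0.86 to 0.11). The third (1381451_at) read 5.91, 6.19, 5.74 and 5.68 on the vehicle arrays and 6.25, 6.32, 6.36 and 5.93 on the treated ones, a difference of 0.34 (0.00 to 0.68). The third and the main probe set carry the same source sequence in the platform annotation, and the suffix _s_at marks probes that can match more than 1 transcript. On the 6 arrays without the near-identical pair the differences were −0.53, −0.51 and 0.23. Within spike-in sets the main probe set differed by −0.60, −0.50 and 0.10 and the third by 0.35, 0.16 and 0.68, so that the third differed most between the near-identical arrays. The main probe set differed by −0.19 without vehicle 3, −0.22 without treated 2 and −0.58 without treated 4, and the mean of all 3 by −0.14.

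Of the inhibitors, Timp1, the soluble TIMP induced by injury and used as a fibrosis marker, ranged most widely. Its probe set (1367712_at) read 9.30, 7.98, 9.78 and 8.04 across vehicle 1 to 4 and 6.43, 8.43, 8.16 and 9.15 across treated 1 to 4. Treated 1 was the lowest array by far, and treated 2, 3 and 4 lay inside the vehicle range. The means of 8.78 ± 0.91 and 8.04 ± 1.15 (SD, n = 4 each) differed by −0.73 (−2.10 to 0.64), by −0.20 without treated 1, by −0.40 without vehicle 3 and by −1.10 without treated 4. In the first spike-in set Timp1 differed by −2.87, in the second by −0.09 and in the third by 0.12. With the near-identical pair left out it differed by −1.02 (−2.83 to 0.80).

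Timp2, a constitutive inhibitor that also links Mmp14 to the Mmp2 precursor, read 9.76, 8.95, 9.5 and 8.60 across vehicle 1 to 4 and 8.39, 8.48, 8.59 and 9.87 across treated 1 to 4 (1386940_at). Its arrays took the same sides as those of Mmp2: vehicle 1 to 3 and treated 4 were the 4 highest. The difference was −0.37 (−1.20 to 0.46), and −1.37, −0.05 and −0.01 within spike-in sets. It was −0.18 without vehicle 1, −0.22 without treated 1, −0.57 without vehicle 4 and −0.72 without treated 4. A dimmer probe set (1367823_at) differed by −0.16 (−0.55 to 0.22). Leaving out vehicle 4 and treated 3, they differed by −0.49 and −0.16.

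Timp3, the TIMP that binds the matrix and also blocks ADAM proteases and signalling through a Vegf receptor, was lower in treated livers at all 4 probe sets. The main one (1389836_a_at) read 9.12, 8.71, 9.07 and 8.05 across vehicle 1 to 4 and 8.08, 8.14, 7.72 and 8.01 across treated 1 to 4. Vehicle 1 to 3 lay above all treated arrays, and vehicle 4 among them. The means of 8.74 ± 0.49 and 7.99 ± 0.18 differed by −0.75, or 1.68-fold lower (log2 interval −1.27 to −0.22, limma unadjusted p = 0.0104, adjusted p = 0.979). Within the spike-in sets this probe set differed by −1.04, −0.81 and −0.33. Without vehicle 4 and treated 3 it differed by −0.89 (−1.24 to −0.54, limma unadjusted p = 0.000621, adjusted p = 0.345).

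The other Timp3 probe sets had smaller differences with wide intervals. The next brightest (1375138_at) read 8.09, 8.69, 8.87 and 5.95 across vehicle 1 to 4 and 7.31, 8.38, 6.16 and 8.03 across treated 1 to 4. The near-identical vehicle 4 and treated 3 stood far below the other 6 arrays there, and the groups overlapped fully. This probe set differed by −0.43 (−1.98 to 1.12), and by −0.64 (−1.41 to 0.12) without those 2 arrays. The dimmer 1372926_at differed by −0.41 (−1.11 to 0.30), and by −0.56 (−0.98 to −0.15) without them. For the dimmest, 1368989_at, these values were −0.18 (−0.50 to 0.15) and −0.30 (−0.67 to 0.08). In the third spike-in set these other probe sets differed, in the same order, by 0.21, 0.07 and 0.19. The mean of the 4 Timp3 probe sets differed by −0.44. The probe sets of a gene share arrays and transcripts and are no independent tests.

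Timp4, a TIMP chiefly of heart and brain, was dim and even. Its probe set (1377632_at) averaged 4.11 ± 0.10 in vehicle and 4.09 ± 0.06 in treated livers, with all 8 arrays between 4.00 and 4.23. The difference was −0.02 (−0.25 to 0.20), 0.03 with the arrays centred on their medians, 0.05, 0.00 and −0.14 within spike-in sets and 0.02 without vehicle 4 and treated 3.

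**Figure D2:**
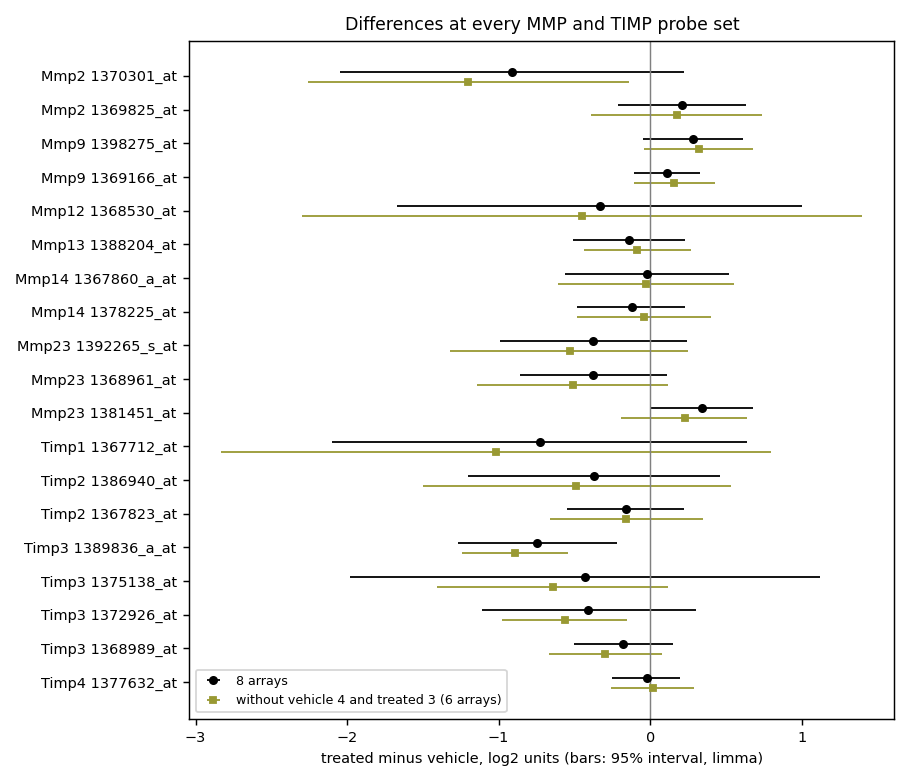
Treated minus vehicle in log2 units at each of the 19 member probe sets, with 95% intervals, over 8 arrays (black) and over the 6 arrays left without vehicle 4 and treated 3 (olive). All intervals over 8 arrays reach 0 except that of Timp3 1389836_a_at, which runs from −1.27 to −0.22.

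The order of arrays was similar, though not the same, among the bright members. For most of them it did not follow the group labels. Over the 7 genes whose main probe set averaged above 6 (Mmp2, Mmp12, Mmp14, Mmp23, Timp1, Timp2 and Timp3), the mean level was 9.21, 8.58, 9.45 and 8.30 across vehicle 1 to 4 and 7.83, 8.21, 8.28 and 9.23 across treated 1 to 4. Vehicle 3 was among the 4 highest arrays for 7 of these 7 genes, and vehicle 1 and treated 4 for 6. Timp3 was the gene for which treated 4 (8.01) was not among the 4 highest, and there vehicle 1 to 3 lay above all treated arrays. Treated 1 was among the 4 highest for 0 of the 7 genes and the lowest for 4. Bright proteases and inhibitors were therefore mostly high on the same arrays.

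Split by spike-in set, the members were lowest relative to vehicle in the first. There 13 of 19 probe sets were below 0 with a median of −0.60, where 42.7% of all probe sets were below 0 with a median of 0.06. In the second set 11 of 19 were below 0 (median −0.05), against 48.7% of all (median 0.007). In the third set, that of the near-identical pair, 8 of 19 were below 0 (median 0.01), against 49.7% of all. The first and the third sets hold 1 array per group, so their values have no replicate error. Values near 0 in the third set follow from the likeness of its arrays.

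**Figure D3:**
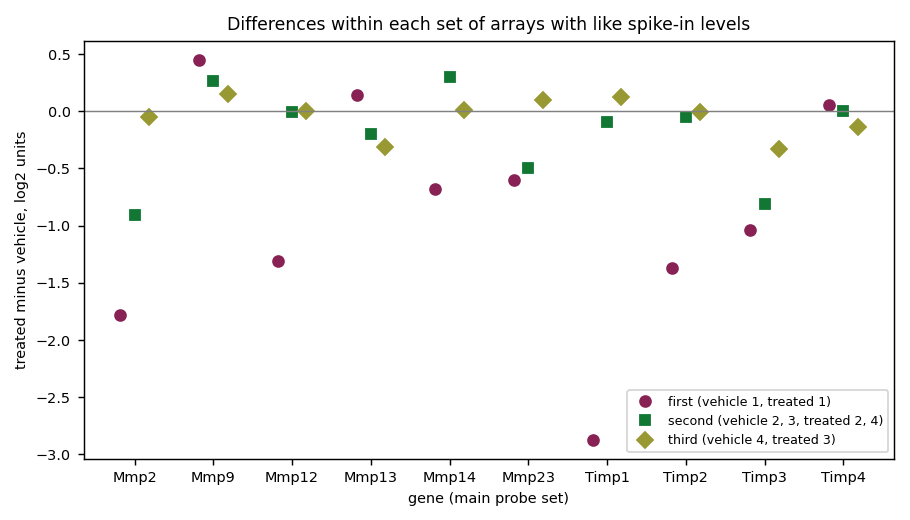
Treated minus vehicle in log2 units for the main probe set of each gene, within the first (purple circles), the second (green squares) and the third (olive diamonds) set of arrays with like spike-in levels. Timp1 is at −2.87 in the first set and near 0 in the others, while the main Timp3 probe set is below 0 in all 3 sets. The other Timp3 probe sets, not drawn here, are at 0.21, 0.07 and 0.19 in the third set.

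For the 4 members whose main probe sets had the widest ranges, the genes with the most similar course over the 8 arrays were found by the mean absolute gap between the deviations of both genes from their own means. For Mmp2 the nearest of 8488 genes was Myh10, a non-muscle myosin heavy chain, with a mean gap of 0.046, against a median of 0.842 over these genes. A gene with no variation would have a gap equal to the member's own mean absolute deviation. This was 0.856 for Mmp2, 0.747 for Mmp12, 0.758 for Timp1 and 0.519 for Timp2, each close to its median gap. The nearest genes were picked as the smallest gaps, so the contrast with the median does not measure how unusual a likeness is. Pdgfrb, the platelet-derived growth factor receptor of stellate cells, followed at 0.107, and Adamtsl2, a secreted matrix protein, at 0.115. Myh10 (1370158_at) read 9.47, 9.09, 9.35 and 7.70 across vehicle 1 to 4 and 7.73, 7.49, 7.58 and 9.26 across treated 1 to 4, high and low on the same arrays as Mmp2. Its gap to Mmp2 was 0.045 without vehicle 4 and treated 3.

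Mmp12 ran nearest to Lgals3 (galectin 3, a macrophage lectin, gap 0.175), Itgax (the integrin chain CD11c, 0.185) and Gstp1 (a glutathione transferase, 0.201), against a median of 0.764. Lgals3 (1386879_at) read 11.38, 10.70, 12.39 and 11.72 across vehicle 1 to 4 and 9.98, 10.39, 11.71 and 12.32 across treated 1 to 4, with vehicle 3 and treated 4 highest, as for Mmp12. For Timp1 the nearest were Psat1, an enzyme of serine synthesis (0.243), Pfkfb3, a regulator of glycolysis (0.258), and Tubb6, a tubulin (0.260), against a median of 0.755. For Timp2 they were Pira2, an immunoglobulin-like receptor (0.107), Irak1bp1 (0.111) and Cyba, a subunit of the phagocyte oxidase (0.118), against a median of 0.516. The near-identical arrays count as 2 of the 8 here, and no test was made of these likenesses.

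**Figure D4:**
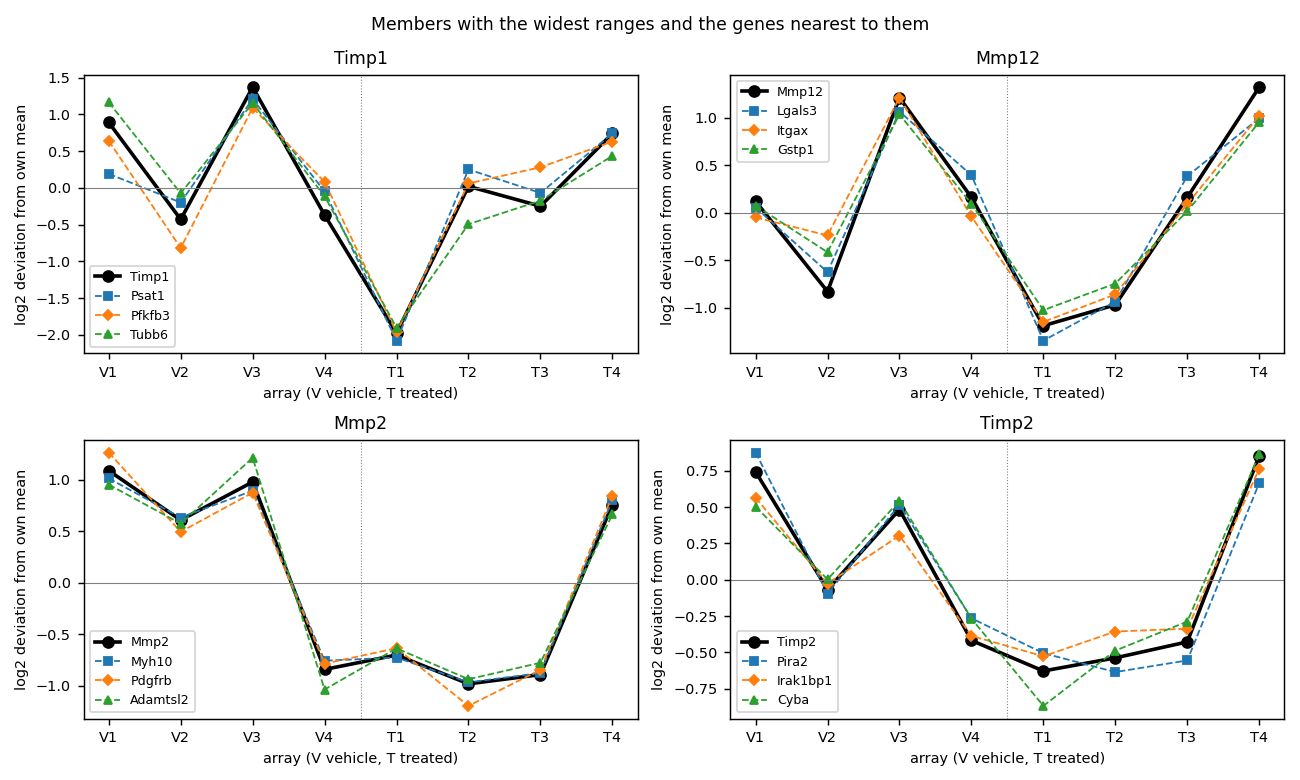
Deviation in log2 units from each gene's own mean over the 8 arrays (V1 to V4 vehicle, T1 to T4 treated), for the main probe sets of the members Timp1, Mmp12, Mmp2 and Timp2 (black) and the 3 genes nearest to each (dashed). Mmp2 and its nearest genes are high on V1 to V3 and T4, and Mmp12 and its nearest genes peak on V3 and T4.

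Other genes of the pathway were read from lists with 1 probe set per gene, where 48.4% of 14217 genes were below 0 and 4.75% had an unadjusted p under 0.05. Over 8 arrays 0 genes of these lists passed the adjusted test. Without vehicle 4 and treated 3, 3 genes of the marker lists described further on passed it and 0 of the pathway lists. Of the other MMP family members, 4 of 11 measured genes were below 0, with a median of 0.11 (0.12 without the near-identical pair). Within the spike-in sets the list median was 0, −0.01 and −0.02. Of the 11 genes, 3 (Mmp3, Mmp8 and Mmp16) were at or under the 25th percentile mark. In this list Mmp24 (1372422_at), a membrane-type MMP, averaged 6.69 ± 0.24 and 6.98 ± 0.31, Mmp19 (1391095_at) 6.68 ± 0.54 and 7.04 ± 0.49, and Mmp28 (1379177_at) 4.12 ± 0.09 and 3.94 ± 0.20. Within the spike-in sets Mmp24 differed by 1.08, 0.11 and −0.14, and Mmp19 by 1.27, 0.01 and 0.12. Whether this list and the members differ was not tested.

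MMP activators, anchors and other inhibitors were below 0 at 19 of 24 genes, with a median of −0.26 (−0.34 without the pair), and 2 had an unadjusted p under 0.05. Cd44 (1368921_a_at), a hyaluronan receptor that can hold Mmp9 at the cell surface, averaged 7.73 ± 0.47 and 6.76 ± 0.76 (difference −0.97, interval −1.82 to −0.12). Furin (1367778_at), the convertase that activates Mmp14, averaged 8.48 ± 0.21 and 8.91 ± 0.33, a difference of 0.43 (0.02 to 0.84). Plat (1367800_at), the tissue activator of plasminogen, averaged 9.15 ± 0.95 and 7.72 ± 1.24. The related ADAM and ADAMTS proteases were below 0 at 10 of 14 genes with a median of −0.23, and at 11 of 14 with a median of −0.44 without the pair. Adamts12 (1380088_at) differed by −0.64 (−1.25 to −0.04), Adam19 (1389151_at) by −0.34 (−0.68 to 0.00) and Adam15 (1387135_at) by −0.41 (−0.86 to 0.04).

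The matrix proteins that MMPs cut were below 0 at 18 of 18 genes, with a median of −0.80. The 10 members at 1 probe set per gene had a median of −0.35, and the difference between these lists was not tested. The substrate list held 5 genes with an unadjusted p under 0.05. Col4a1 and Col4a2, the basement membrane collagens cut by gelatinases, averaged 9.66 ± 0.88 and 8.17 ± 0.89 (1373245_at) and 8.52 ± 0.58 and 7.73 ± 0.49 (1388494_at). Eln (1388111_at), elastin, the substrate of Mmp12, averaged 6.28 ± 0.42 and 5.73 ± 0.27. Per array the mean of the list was 9.63, 8.83, 9.54 and 8.10 across vehicle 1 to 4 and 7.82, 7.88, 8.10 and 9.05 across treated 1 to 4, so that vehicle 1 to 3 and treated 4 were again the 4 highest. Without vehicle 4 and treated 3 the median was −1.06. Cytokines and transcription factors known to induce MMPs or TIMPs were below 0 at 20 of 28 genes with a median of −0.12, which was −0.12 without the pair too. The profibrotic cytokine Tgfb1 (1370082_at) differed by −0.67 (−1.20 to −0.15), the transcription factor Ets1 (1368851_at) by −0.78 (−1.41 to −0.14) and Runx1 (1368914_at) by −0.89 (−1.79 to 0.02).

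Markers of cells known to make MMPs and TIMPs, of which 0 passed the adjusted test over 8 arrays, are given beside the members. In whole liver, fewer cells of a type and less RNA per cell cannot be told apart. Stellate cell and myofibroblast markers were below 0 at 10 of 12 genes (median −0.60, and −0.81 without the near-identical pair), and the mean of the list ran from 7.52 to 8.48 in vehicle and from 7.25 to 8.06 in treated livers. Acta2 (1370857_at), smooth muscle actin, averaged 6.81 ± 0.40 and 6.15 ± 0.27, Tagln (1367570_at), transgelin, 9.13 ± 0.90 and 8.06 ± 0.31, and Des (1367600_at), desmin, 6.09 ± 0.17 and 5.94 ± 0.27. The markers of this list above 0 were Lrat (0.26) and Rgs5 (0.54). Macrophage markers were below 0 at 10 of 13 genes (median −0.25, and −0.34 without the pair), with list means from 8.29 to 9.12 in vehicle and from 7.69 to 9.08 in treated livers. Treated 1, the array lowest in Mmp12 and Timp1, had the lowest macrophage mean (7.69). It was also the lowest array in the stellate cell (7.25), bile duct (5.6), substrate (7.82), activator (8.15), ADAM (5.9) and inducer (5.82) lists. In the endothelial, mast cell, neutrophil and hepatocyte lists another array was lowest. The median difference over the macrophage genes was −1.58 in the first spike-in set, 0.02 in the second and −0.01 in the third. Cd68 (1375010_at), a lysosomal protein of macrophages, averaged 9.74 ± 0.46 and 9.60 ± 0.93. Adgre1 (1381311_at) differed by −0.97 (−2.05 to 0.10). The macrophage markers above 0 were Cd163 (0.18), Cd14 (0.88) and Trem2 (0.07).

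Endothelial markers were below 0 at 10 of 10 genes (median −0.67, and −0.90 without the pair), with list means from 6.82 to 7.99 in vehicle and from 6.79 to 6.93 in treated livers. Treated 4, high in Mmp2 and Timp2, had the highest treated mean there (6.93), near vehicle 4 (6.82). Vehicle 1 to 3 were at 7.88 to 7.99. Single genes differed: treated 4 was the lowest array for Kdr (6.15) and Stab2 (5.27), but among the higher ones for Tie1 (7.40) and Vwf (8.71). Pecam1 (1371545_at), an endothelial adhesion molecule, averaged 6.51 ± 0.31 and 6.15 ± 0.25. Cldn5 (1374104_at), an endothelial tight junction protein singled out after its values were seen, averaged 6.04 ± 1.33 and 4.29 ± 0.38 and passed without the pair (limma adjusted p = 0.0388). It read 6.82, 6.60 and 6.69 on vehicle 1 to 3 and 4.05 on vehicle 4, which that fit leaves out. Mast cell markers were below 0 at 7 of 8 genes (median −0.68, and −0.90 without the pair), with list means from 4.36 to 5.63 in vehicle and from 4.25 to 4.57 in treated livers. The mast cell proteases Cpa3 (1371151_at) and Cma1 (1387173_at) passed without the pair (limma adjusted p = 0.0147 and 0.0388). Over 8 arrays they did not (limma adjusted p = 0.979 for both). Cpa3 read 8.33, 7.54 and 7.76 on vehicle 1 to 3 and 3.86 on vehicle 4. Cma1 read 5.32, 5.23 and 5.44 on vehicle 1 to 3 and 3.70 on vehicle 4. In the same list Kit differed by −0.07, Hdc by −0.34 and Gata2 by 0.28. All lists were chosen with earlier results of these data known. Bile duct markers were below 0 at 6 of 6 genes (median −0.27, and −0.35 without the pair), with list means from 5.83 to 6.70 and from 5.6 to 6.84. Neutrophil markers, from a cell that stores Mmp8 and Mmp9, were below 0 at 6 of 8 genes (median −0.10, and −0.15 without the pair), and 4 of the 8, Csf3r, Cxcr2, Camp and RatNP-3b, were at or under the 25th percentile mark. Hepatocyte markers were below 0 at 7 of 11 genes with a median of −0.03 (−0.04 without the pair), and their list means spanned 13.19 to 13.50 and 13.26 to 13.54. The part of these cell markers in the values of the members was not tested.

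**Figure D5:**
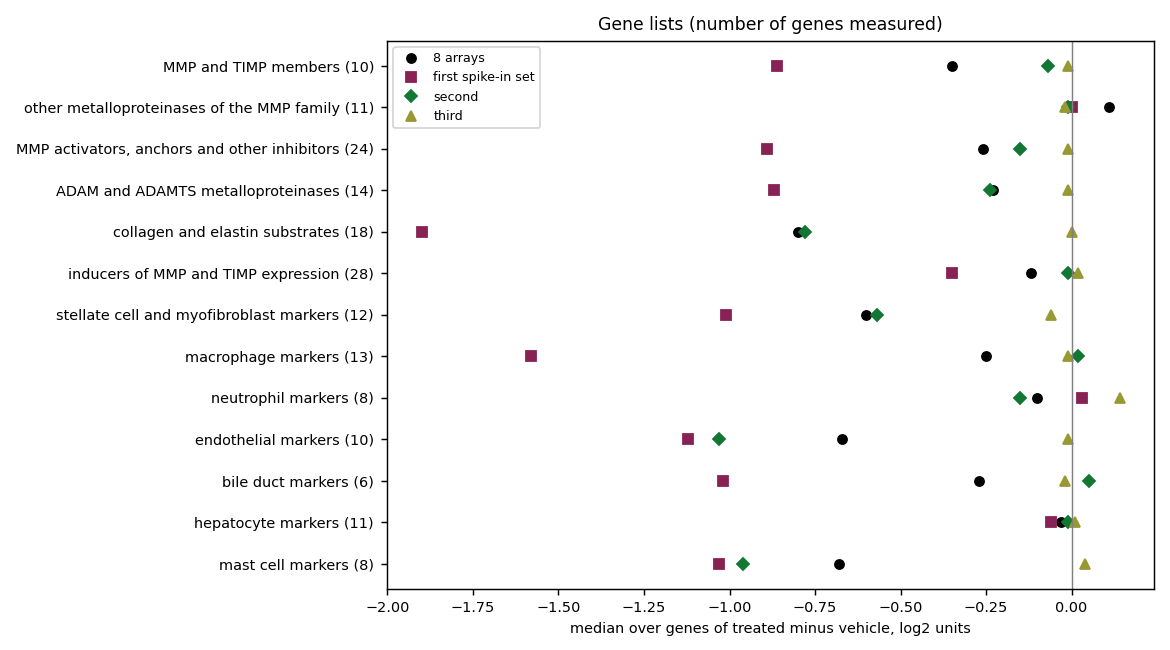
Median over the genes of each list of treated minus vehicle in log2 units, over 8 arrays (black) and within the first (purple), the second (green) and the third (olive) spike-in set, with the number of genes measured in parentheses. Substrates are at −0.80 over 8 arrays, the 10 members at −0.35 and hepatocyte markers at −0.03, and in the third set every list lies between −0.06 and 0.14.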

How the data were processed

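The authors deposited log2 intensities of 8 Affymetrix Rat2302 arrays, made with affy and RMA (background correction, quantile normalization, probe summaries) per the submitters' processing notes; the sources used here give no versions. Per the labels' protocols, 20 µg of total RNA was primed with oligo(dT) and transcribed into biotinylated cRNA, so signals depend on distance from the 3′ end. RMA draws small differences of dim genes towards 0. The values were used as deposited, without 57 control probe sets, and 0 sample columns were left unused.

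Groups follow the sample titles. Differences were fitted with limma 3.58.1 (R 4.3.3) on all 8 arrays without covariates and adjusted by Benjamini-Hochberg over 31042 probe sets. The model was also run on simulated data of independent normal values, which held no near-identical arrays. That run therefore does not show how the model behaves with such a pair. The main probe set of a gene has its highest mean over 8 arrays. All 10 members matched the RefSeq gene table by gene ID.

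Every member probe set is named. Each pathway list gives its 3 genes of smallest unadjusted p, and the 4 members of widest range their 3 nearest genes with a mean above 6. In the marker lists the named genes are among the first measured in list order or were picked by their values. No bile duct marker is named. Members, lists and spike-in sets were chosen with earlier results of these data known. Alternatives were other normalization, filters on dim probe sets, variance settings, array weights, blocks, a Gapdh covariate and leaving out arrays. The number of arrays limits precision.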

Additional observations from a re-analysis of the deposited data

Results flagged for a closer look

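In 38 groups of 4 arrays (19 member probe sets in both groups) 4 held an array that stood apart by Dixon's criterion. For independent normal values chance flags about 1 in 20 groups. The share over all probe sets was not computed, and these groups share arrays and genes. The count is therefore no result about the members. In the treated group, treated 4 was at 8.81 for Mmp2 (1370301_at), with the other arrays at 7.07 to 7.35, and at 9.87 for Timp2 (1386940_at), with the others at 8.39 to 8.59. The dim Mmp2 probe set (1369825_at) had treated 4 at 3.45, below the others at 4.15 to 4.23. Treated 3, which is nearly identical to vehicle 4, was at 4.45 for Timp3 (1372926_at), with the others at 5.05 to 5.07.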

How the results depend on the processing

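With limma, 0 of the member probe sets passed the adjusted threshold under every alternative run, including a linear model without moderated variances and each array left out in turn (0 to 0). Over the 8 arrays 1 member probe set had an unadjusted p under 0.05. The median member difference of −0.18 stayed below 0 throughout, from −0.38 under either filter on dim probe sets to −0.09 without treated 1. It lay between −0.25 and −0.09 with single arrays left out, and was −0.12 with median centring. The number of probe sets below 0 lay between 13 and 15 with single arrays left out. It was 9 of 10 with 1 probe set per gene and 13 of 19 with median centring. With the replicate number as a block the median was −0.18 and 0 were called. Deviations of arrays with the same number correlated at −0.11, 0.04, −0.12 and −0.62, so the numbers were not taken as pairs, and 1 of 8 arrays correlated best with their own number in the other group. Signs turned for 3 members. With single arrays left out Mmp12 ran from −0.83 to 0.01, Mmp14 from −0.15 to 0.12 and Timp4 from −0.06 to 0.02. Mmp12 was 0.01 without vehicle 3 and without treated 1. Mmp14 was 0.03 with median centring, and 0.06, 0.05, 0.12 and 0.10 without vehicle 1, vehicle 3, treated 1 and treated 3. Timp4 was 0.03 with median centring, 0.02 without vehicle 4 with or without treated 3, and 0.01 without treated 4. The cause was not tested.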

Other observations

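Of the 4 TIMP genes, 3 overlap a synapsin gene in the RefSeq table of GRCr8: Timp1 overlaps Syn1, Timp4 Syn2 and Timp3 Syn3. Synapsins are proteins of nerve terminals. Syn1 (1369251_a_at) averaged 4.52 ± 0.27 and 4.54 ± 0.41 (SD, n = 4; vehicle first) and differed by 0.02 (95% interval −0.47 to 0.51), where Timp1 differed by −0.73. Syn3 (1369423_at) averaged 3.60 ± 0.35 and 3.72 ± 0.40 and was dim. Syn2 (1382850_at) averaged 4.94 ± 0.32 and 5.21 ± 0.31. The gene Mmp15 (1383668_at), a membrane-type MMP outside the members, read 6.96, 8.20, 7.29 and 7.45 across vehicle 1 to 4 and 8.29, 7.29, 7.28 and 8.14 across treated 1 to 4, with treated 1, the lowest array for Timp1 and Mmp12, at the top. Mmp15 was chosen after its values were seen.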
